A study of Mus musculus with 4 samples.

Results

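The 5 apolipoprotein genes described here, Apoa1, Apoa2, Apoa4, Apob and Apoh, were chosen by name as apolipoproteins made by hepatocytes. The choice was made with earlier results of these data known. Probes of other names within 100 kb, except those of the 5 genes themselves, were the local control. All 5 genes were measured among 20445 autosomal genes. These genes carry 10 of 52385 autosomal probes, namely 3 in Apoa1, 1 in Apoa2, 1 in Apoa4, 3 in Apob and 2 in Apoh. The measurement is array comparative genomic hybridisation of DNA, in which a sample and a reference labelled with different dyes compete for the same probes. The 4 samples, replicates 1 to 4, form 1 group of mouse liver cells whose labelled genotype is TAK1LPC-KO_RIP3-_-, and the sole control is a pool of DNA from 4 normal livers of a genotype the labels leave out. TAK1 (Map3k7) is a kinase of inflammatory signalling and RIP3 (Ripk3) a kinase of necroptosis; what drove the TAK1 deletion, and the age of the mice, are not given in the labels. The labels do not state whether 4 animals were used. Every p-value therefore rests on the spread among these 4 samples and no others, and that spread may be technical. The test (limma) draws the spread of each gene or probe towards that of all genes or probes tested.

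Apolipoproteins are the protein part of the particles that carry lipids in blood. Apoa1 is the main protein of high-density lipoprotein and Apoa2 the next most abundant one. Apoa4 is carried on chylomicrons and high-density lipoprotein and is made in intestine and, in mice, in liver. Apob is the large structural protein of very-low-density and low-density lipoprotein and of chylomicrons. Apoh, also called beta-2-glycoprotein I, binds anionic phospholipids. Apoa1, Apoc3, Apoa4 and Apoa5 lie side by side on mouse chromosome 9. The material measured is DNA, so the labelled tissue could not be checked against marker genes here, and no value below is read as a level of expression. Whether any signal came from something other than genomic DNA was not tested.

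The probes of Apoa1 and Apoa4 and those of Apob are shown because ratios of opposite sign lie close together in the first stretch and ratios of 1 sign in the second. Sequences are those the array design gives, in lower case, numbered by position on mouse build mm9.
Apoa1 probe 1, chr9:46036880-46036929: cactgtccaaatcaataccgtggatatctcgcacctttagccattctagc
Apoa1 probe 2, chr9:46037709-46037754: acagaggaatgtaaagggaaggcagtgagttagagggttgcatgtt
Apoa1 probe 3, chr9:46037975-46038023: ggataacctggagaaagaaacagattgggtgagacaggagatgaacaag
Apoa4 probe 1, chr9:46049613-46049660: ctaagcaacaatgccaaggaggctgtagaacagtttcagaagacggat
Apob probe 1, chr12:7992875-7992931: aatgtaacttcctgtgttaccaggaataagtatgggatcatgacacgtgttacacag
Apob probe 2, chr12:8007751-8007810: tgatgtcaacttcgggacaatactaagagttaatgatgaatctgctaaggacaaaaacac
Apob probe 3, chr12:8019649-8019708: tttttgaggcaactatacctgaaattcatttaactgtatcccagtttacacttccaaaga
The Apoa2 probe lies at chr1:173156460-173156511. The Apoh probes lie at chr11:108265944-108266003 (probe 1) and chr11:108275673-108275732 (probe 2). Exon, intron and UTR positions on mm9 were not used here, and the strand of the printed letters was not settled. The 10 probes are 46 to 60 bases long and 33.3% to 46% G or C, with a median of 41.3%. Over all autosomal probes the median was 36.7% and the range from the 5th to the 95th percentile 30% to 41.8%, so the Apoa1, Apoa2 and Apoa4 probes, at 42.3% to 46%, lie above that range.

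Each value is a log2 ratio of the processed Cy5 signal (the sample) over the processed Cy3 signal (the pool), with the median of the autosomal probes of each array set to 0. As a scale, a change of a whole sample from 2 copies to 3 would be 0.58, to 4 would be 1, and to 1 would be -1. A gene's value is the mean of its probes, and a gene or probe was called higher or lower at an adjusted p under 0.05 (limma, Benjamini-Hochberg over all autosomal features) with a mean at least 0.25 from 0. Slide 1 held replicates 1 and 2 and slide 2 held replicates 3 and 4. The dyes were not swapped, and any probe-specific dye effect is part of the ratio. DNA came from formalin-fixed, paraffin-embedded sections, and the derivative log ratio spread, the scanner software's measure of probe-to-probe noise, was 0.376 to 0.417, outside that software's accepted range on all 4 arrays. In the sample channel 84.3% to 89.9% of probes, and in the pool channel 94.4% to 97.7%, were well above background. The deleted genes do not check the labels, since which part was deleted is not given. The 2 Map3k7 probes averaged 0.89 ± 0.25 and 0.41 ± 0.12 (SD, n = 4). Both were called higher (adjusted p = 0.00264 and 0.0111, limma), as were 18.2% of all autosomal probes. The 2 Ripk3 probes averaged -0.03 ± 0.06 and -0.12 ± 0.08 and were not called.

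Of the 5 genes, 4 were higher in the samples than in the pool and 1 was lower. Among all autosomal genes 35.4% were called in either direction, 16.1% higher and 19.3% lower, so a call by itself is common on these arrays. Apoa2 had the largest mean of the 5, a 3.31-fold ratio, followed by Apob at 2.16-fold, Apoh at 1.68-fold and Apoa1 at 1.38-fold, while Apoa4 was 1.97-fold lower. The 5 genes had a median of 0.75, against -0.01 over all autosomal genes. Because they were chosen with earlier results of these data known, this gap is no test of apolipoproteins as a group. The 14 other apolipoproteins measured had a median of -0.05.

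Apoa2 read 1.86 on replicate 1, 1.73 on replicate 2, 1.74 on replicate 3 and 1.58 on replicate 4. All 4 arrays were far above the pool and within 0.3 of each other. The mean was 1.73 ± 0.11 (SD, n = 4; SE 0.07; adjusted p = 0.000145, limma). This value rests on 1 probe, which is printed on 6 spots, and on replicate 2 it rests on 5 of them after 1 outlier spot was left out. The SD between these spots within an array was 0.17, 0.07, 0.11 and 0.18 on replicates 1 to 4, of the same order as the spread between arrays. Processed signals were 2969, 3100, 3593 and 3278 in Cy5 and 833, 963, 1077 and 1085 in Cy3, so the sample channel was the brighter one on every array.

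Apob read 1.04, 1.01, 1.22 and 1.18 on replicates 1 to 4. The mean was 1.11 ± 0.10 (SD, n = 4; SE 0.07; adjusted p = 0.000472, limma). Its 3 probes span 26834 bases, and each of them was higher in the samples on all 4 arrays. Probe 1 read 0.63, 0.81, 1.32 and 1.07, with a mean of 0.95 ± 0.30 and an adjusted p of 0.00282. Probe 2 read 1.50, 1.39, 1.42 and 1.49, with a mean of 1.45 ± 0.05 and an adjusted p of 0.000289. Probe 3 read 1.01, 0.84, 0.91 and 0.98, with a mean of 0.93 ± 0.07 and an adjusted p of 0.00111. Probe 1 was the uneven one, with both slide 2 arrays above both slide 1 arrays, whereas the arrays differed by less than 0.2 at probes 2 and 3. Probe 2 lay above probe 1 by 0.50 ± 0.32 (adjusted p = 0.0448) and above probe 3 by 0.52 ± 0.03 (adjusted p = 0.0171). These steps within Apob missed the threshold under several alternatives, among them leaving out replicate 1, with 0.37 (adjusted p = 0.154) and -0.53 (adjusted p = 0.0507) from each probe to the next.

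Apoh read 0.70, 0.61, 0.90 and 0.79 on replicates 1 to 4, which is above the pool on each array. The mean was 0.75 ± 0.12 (SD, n = 4; SE 0.07; adjusted p = 0.00138, limma). That mean joins a pair of unlike probes 9669 bases apart. Probe 1 read -0.44, -0.52, -0.02 and -0.07, and its mean of -0.26 ± 0.26 did not pass the test (adjusted p = 0.107). Probe 2 read 1.83, 1.75, 1.82 and 1.65, with a mean of 1.76 ± 0.08 (adjusted p = 0.000138). The arrays did not overlap between the probes, and probe 2 exceeded probe 1 by 2.03 ± 0.29 (adjusted p = 0.000489). The higher call of Apoh as a gene thus rests on probe 2, without which the mean is that of probe 1. Probe 1 was the dimmest of the 10, at 388 to 484 in processed Cy5 and 493 to 575 in Cy3, though well above background on every array.

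Apoa1 read 0.62, 0.51, 0.39 and 0.35 on replicates 1 to 4, and the mean was 0.47 ± 0.12 (SD, n = 4; SE 0.07; adjusted p = 0.00428, limma). This mean describes none of its 3 probes, which lie within 1144 bases. Probe 1 read -0.88, -0.81, -0.72 and -0.50 and was lower than the pool, with a mean of -0.73 ± 0.16 (adjusted p = 0.0027). Probe 2 read 0.02, -0.30, 0.14 and -0.01, and its mean of -0.04 ± 0.19 did not pass the test (adjusted p = 0.793). Probe 3 read 2.71, 2.64, 1.76 and 1.57 and was higher, with a mean of 2.17 ± 0.59 (adjusted p = 0.00141), the largest mean and the largest spread among the 10 probes. On every array probe 2 exceeded probe 1, with a mean step of 0.69 ± 0.22 across 779 bases (adjusted p = 0.01). On every array, too, probe 3 exceeded probe 2, with a mean step of 2.21 ± 0.71 across 220 bases (adjusted p = 0.00178). In the deposited log2 table that second step was 1.16 (adjusted p = 0.00123). Without probe 3 the gene's mean would be -0.38 ± 0.14, and with the median of the 3 probes in place of the mean it was -0.04 (adjusted p = 0.767). In the deposited log2 table, before centring, probe 3 read 0.81, 0.69, 1.74 and 0.80, in which replicate 3 rather than slide 1 is high. The gene's mean in that table after centring was -0.06 (adjusted p = 0.724). The direction of Apoa1 as a gene therefore rests on probe 3 and on the processing.

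The range between the highest and the lowest probe mean was 2.90 in Apoa1 and 0.52 in Apob. Among 4685 genes with at least 3 probes the median range was 0.63 and the 95th percentile 1.37, and 10 genes, 0.213% of them, had a wider range than Apoa1. These ranges are those of the main processing. In the deposited log2 table Apoa1 probes 1 and 3 averaged -0.935 and 1.01, which lie closer together.

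Apoa4 was the one member that was lower. It read -0.86, -1.16, -0.80 and -1.10 on replicates 1 to 4, which is below the pool on each array. The mean was -0.98 ± 0.18 (SD, n = 4; SE 0.08; adjusted p = 0.00105, limma). Its single probe gave processed signals of 1860, 1677, 1889 and 1844 in Cy5 and 3421, 3850, 3298 and 3934 in Cy3. In the deposited log2 table the value was -1.64 after centring, further from 0.

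**Figure D1:**
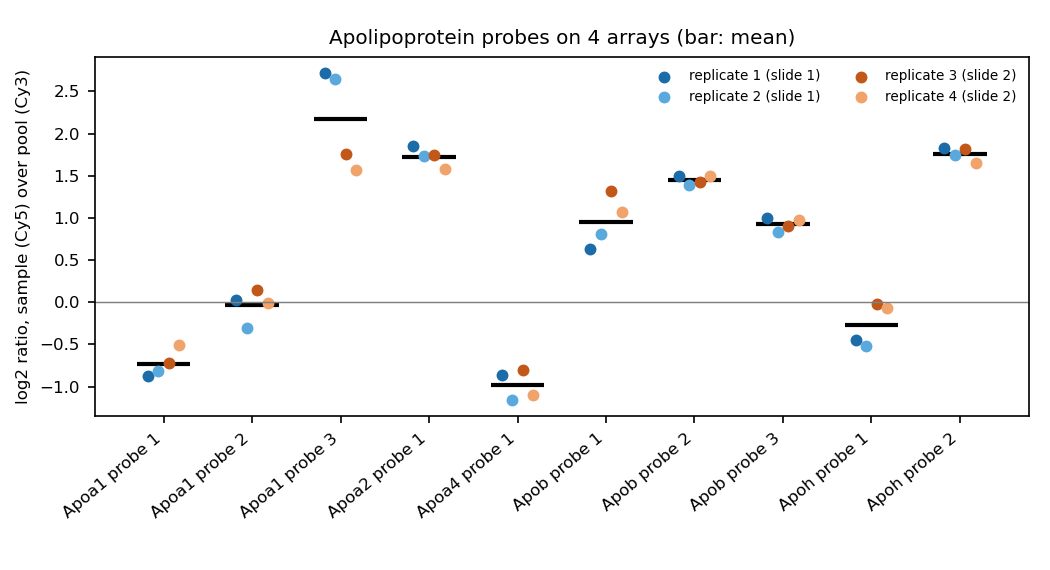
Log2 ratio of each of the 10 probes on the 4 arrays, blue for slide 1 and orange for slide 2, with the mean as a bar and 0 as the level of the pool. Apoa1 runs from -0.73 at probe 1 to 2.17 at probe 3, the 3 Apob probes lie between 0.93 and 1.45, and the Apoh probes lie at -0.26 and 1.76.

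Among the 10 probes, 6 were called higher and 2 lower, against 36.9% of all autosomal probes in either direction (18.2% higher and 18.8% lower). The 6 that were higher are all 3 of Apob, Apoa1 probe 3, the Apoa2 probe and Apoh probe 2. The 2 that were lower are Apoa1 probe 1 and the Apoa4 probe. All 15 member spots on each array were well above background in both channels and none was saturated.

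**Figure D2:**
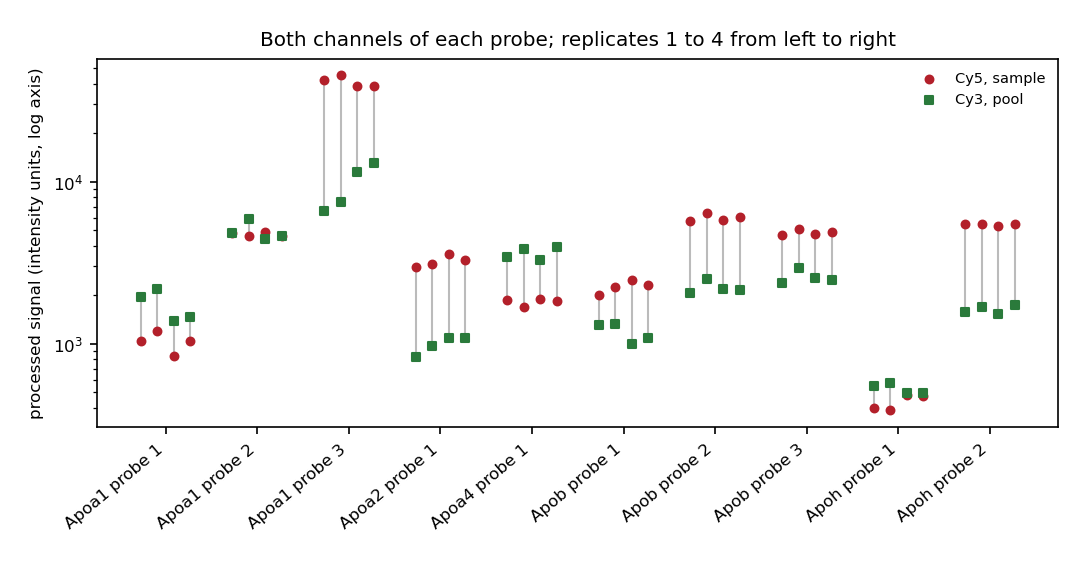
Processed signal in intensity units on a log axis for each probe, with the sample (Cy5, red circles) joined to the pool (Cy3, green squares) on replicates 1 to 4 from left to right. At Apoa1 probe 3 the pool signal is 6542 and 7470 on slide 1 and 11493 and 12959 on slide 2, while the sample signal stays between 38764 and 45296.

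Before any processing, the mean signal of a probe is in raw intensity units, whose array medians were 155 to 165 in Cy5 and 209 to 334 in Cy3. At Apoa1 probe 3 the raw signal was 4695, 5334, 4959 and 4804 in Cy5 and 1262, 2349, 3017 and 2080 in Cy3 on replicates 1 to 4. The raw ratio there was 3.72, 2.27, 1.64 and 2.31. Raw ratios are not scaled for array brightness, and the Cy3 medians were 230.5, 334, 278.4 and 209 on replicates 1 to 4. Raw ratios therefore cannot be compared between arrays. At Apoh probe 2 the raw ratio was 1.81, 1.20, 1.61 and 2.15, and at Apoa2 it was 1.69, 1.16, 1.46 and 1.88, above 1 on every array although the raw median was higher in Cy3. At Apoa4 it was 0.385, 0.212, 0.325 and 0.419, below 1 on every array. The 3 Apob probes had raw ratios from 0.70 to 1.95. Replicate 2, the array with the highest Cy3 median, was the lowest at each of them.

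The slides were compared because each held 2 of the 4 samples, and slide and samples cannot be told apart. In limma's test of slide 2 minus slide 1, 0 of the 10 probes were called, as were 0% of all 52385 autosomal probes, in a comparison of 2 arrays with 2. At an unadjusted p under 0.05 the counts were 3 of 10 and 5183 of 52385. Apoa1 probe 3 was 1.01 lower on slide 2 on the log2 scale, at -1.01 (SE 0.15; unadjusted p = 0.000929; adjusted p = 0.491), and at this probe slide 2 read 1.75 times slide 1 in Cy3 and 0.886 times in Cy5. The slides differed by 0.44 at Apoh probe 1 (adjusted p = 0.498) and by 0.48 at Apob probe 1 (adjusted p = 0.498), slide 2 being the higher. With the normexp background correction, Apoa1 probe 3 was called, with a difference of -0.85 (adjusted p = 0.0426), as 1 of 34 probes on the whole array. Averaging the arrays of each slide into 1 sample left the 5 genes' calls as they were.

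To ask whether the ratios belong to longer stretches of chromosome, each gene was set against the mean of the probes of other names within 100 kb on the same array. All 4 of the genes with such probes stood apart from their flanks, 3 above and Apoa4 below, where 33.1% of 19168 genes were called (17.2% above and 15.9% below). The difference was 1.96 ± 0.13 for Apoa2 (2.10, 2.05, 1.86 and 1.85 on replicates 1 to 4; adjusted p = 9.3e-05, limma). It was 0.74 ± 0.16 for Apoh (0.80, 0.59, 0.94 and 0.63; adjusted p = 0.00194). For the chromosome 9 pair it was of opposite sign within the same neighbourhood. Apoa1 stood at 0.65 ± 0.18 (0.81, 0.76, 0.61 and 0.41; adjusted p = 0.00318) and Apoa4 at -0.80 ± 0.21 (-0.67, -0.91, -0.58 and -1.05; adjusted p = 0.00211). The Apoa4 difference was -0.53 with the GC correction (adjusted p = 0.00902) and -1.38 in the deposited table (adjusted p = 0.000705). The Apoa1 difference was 0.38 with flanks within 50 kb (adjusted p = 0.0231), and it missed the threshold with medians, at 0.06 (adjusted p = 0.69), and in the deposited table, at 0.20 (adjusted p = 0.237). Apoh without probe 2 averaged -0.26 and Apoa1 without probe 3 averaged -0.38, below flank means of 0.01 and -0.18. That Apoh and Apoa1 stood above their flanks thus rests on those probes.

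Apob has no probe of another name within 100 kb. The nearest lie 122.6 kb before and 147 kb after its probes, so a window of 500 kb was taken for it after the data were seen. Against those 13 probes Apob stood at 1.06, 0.94, 1.33 and 1.14, a mean of 1.12 ± 0.16 (adjusted p = 0.000665), where 31.5% of 20379 genes were called. The 13 flanking probes averaged -0.003 ± 0.08, with means from -0.56 to 0.62, and none of them reached the lowest of the 3 Apob probes. Of these 13, 1 was called higher and 2 lower, against 18.2% and 18.8% of all autosomal probes. The one called higher, at 0.62 ± 0.13 (adjusted p = 0.00347, limma), is the nearest probe before Apob, 122.6 kb away. From the last Apob probe to the next probe the ratio fell by 1.49 on the log2 scale (adjusted p = 0.00313), or by 0.93 in the deposited table (adjusted p = 0.00386) and 0.30 with normexp (adjusted p = 0.0612), and that next probe was not well above background on every array. The step into the first Apob probe, 0.34, did not pass the test (adjusted p = 0.143).

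**Figure D3:**
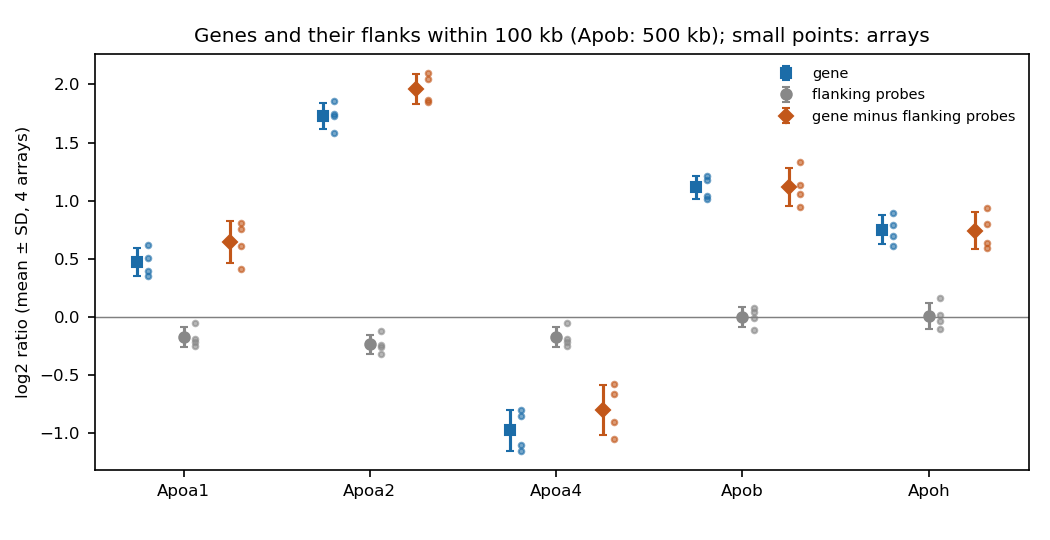
Log2 ratio of each gene (blue squares), of its flanking probes (grey circles) and of the difference (orange diamonds), as mean ± SD over 4 arrays with the arrays as small points, using flanks within 100 kb, or 500 kb for Apob. The flank means lie between -0.24 and 0.01, and the differences range from -0.80 for Apoa4 to 1.96 for Apoa2.

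The probe-by-probe order shows between which neighbouring probes the ratio changed. It does not measure the length of a change, since Apoa2 and Apoa4 have 1 probe each and Apob has no near neighbour. Whether a change at a single probe belongs to the DNA or to the probe was not tested. Of all 52366 steps between neighbouring autosomal probes, 30.6% were called by the same rule, and the following steps were examined after the data were seen. On chromosome 9, from Apoa1 probe 3 to the Apoc3 probe 3131 bases further on, the ratio fell by 2.01 (adjusted p = 0.00251), or by 0.83 in the deposited table (adjusted p = 0.00533). From Apoc3 to Apoa4, across 8408 bases, it fell by 1.14 (adjusted p = 0.00194; by 1.78 in that table, adjusted p = 0.000193), and from Apoa4 to the next, unnamed probe it rose by 1.17 (adjusted p = 0.00181). The Apoc3 probe between the pair read 0.02, 0.03, 0.48 and 0.13, with a mean of 0.16 ± 0.22 that did not pass the test (adjusted p = 0.204), though with the GC correction it was called at 0.39 (adjusted p = 0.0189). Apoc3 is a protein of triglyceride-rich lipoproteins that restrains their clearance. Apoa5, which lowers plasma triglycerides, read -0.09 ± 0.08 (adjusted p = 0.318). Bud13 was lower, at -0.54 ± 0.24 (adjusted p = 0.00832), whereas Zfp259 at -0.13 and 4931429L15Rik at -0.24 did not pass. The latter was called lower under 4 alternatives, from -0.27 to -0.34. The 8 flanking probes that Apoa1 and Apoa4 share averaged -0.18 ± 0.09, and all 8 lie after Apoa1, from 3.1 to 83.9 kb, so this control covers 1 side of Apoa1 alone. The nearest probe before Apoa1, in Sik3, lies 152070 bases away, and the step from it to Apoa1 probe 1 was -1.07 ± 0.35 (adjusted p = 0.00389).

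At Apoa2 the step up from the Nr1i3 probe 8230 bases before it was 1.95 ± 0.30 (adjusted p = 0.000596). The step down to the Fcer1g probe, 3664 bases after it, was -2.33 ± 0.17 (adjusted p = 0.000156). Nr1i3 encodes the nuclear receptor CAR, which induces drug-metabolising enzymes in liver, and it read -0.22 ± 0.20 (adjusted p = 0.0947). Of the 11 named genes within 100 kb of Apoa2, 5 were lower, among them Fcer1g at -0.60, Adamts4 at -0.53 and Ufc1 at -0.53. None of the 11 was higher. Over all autosomal genes 19.3% were lower and 16.1% higher. The genes 1700009P17Rik, Sdhc, Pcp4l1, B4galt3 and Usp21, like Nr1i3, did not pass, with means from -0.22 to 0.19. With the regional correction 1700009P17Rik was called higher at 0.31 (adjusted p = 0.0179), and in the deposited table B4galt3 was called lower at -0.25 (adjusted p = 0.0384). All 16 flanking probes together averaged -0.24 ± 0.08, with probe means from -0.73 to 0.21, so the Apoa2 probe was the one high probe in that stretch.

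At Apoh the step from the preceding ENSMUST00000133383 probe into probe 1 was -0.27 (adjusted p = 0.158) and did not pass the test. The step from probe 2 to the unnamed probe 7884 bases further on was -1.96 ± 0.39 (adjusted p = 0.000844). Probe 2 stood above the probes on either side of it. The 3 named genes within 100 kb, Prkca at -0.12, ENSMUST00000133383 at -0.02 and Ccdc46 at 0.16, did not pass the test as genes. The 8 flanking probes averaged 0.01 ± 0.11, with probe means from -0.31 to 0.53. Of these 8, 1 was called higher, a Ccdc46 probe 22 kb after Apoh at 0.53 (adjusted p = 0.0197, limma). Another 1, a Prkca probe at -0.31, was called lower (adjusted p = 0.0328). Over all autosomal probes 18.2% were called higher and 18.8% lower.

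**Figure D4:**
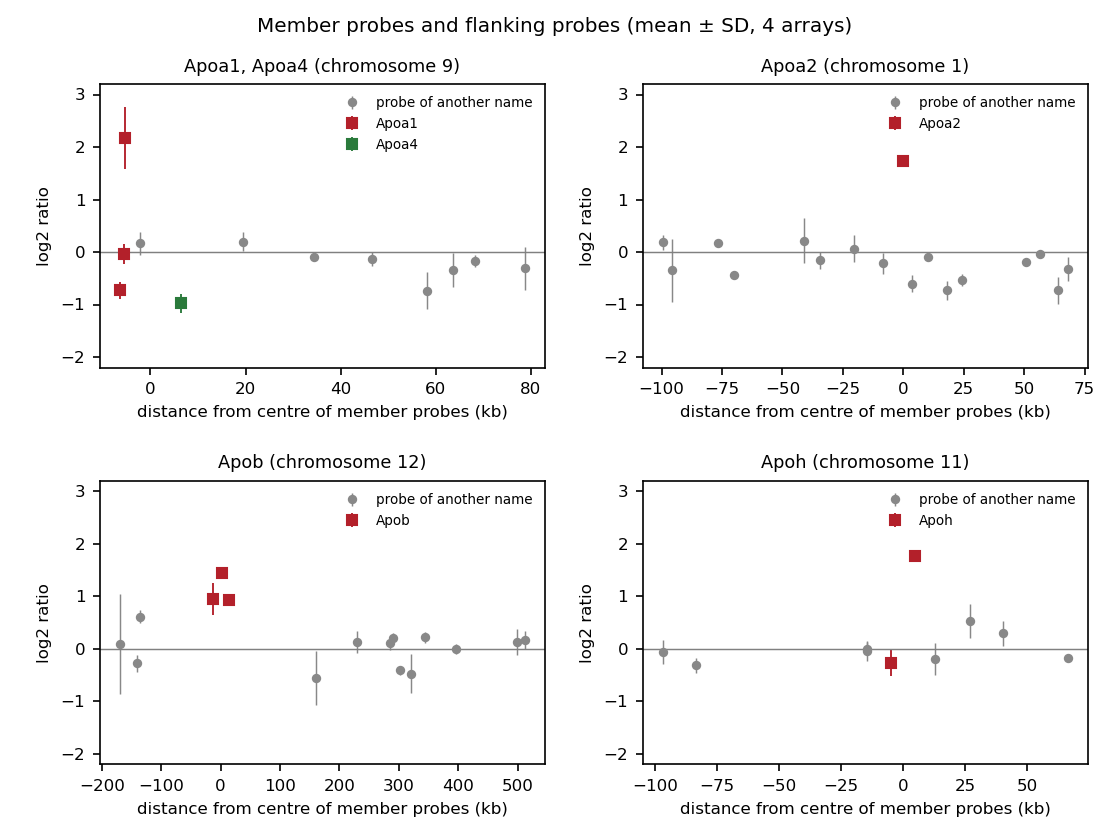
Mean ± SD over 4 arrays of the log2 ratio of member probes (coloured squares) and of probes of other names (grey circles) against distance in kb from the centre of the member probes. Apoa2 and Apoa4 have 1 probe each and Apoh has 2, so only Apoa1 and Apob could show 3 neighbouring probes together. The 3 Apob probes lie together, from 0.93 to 1.45, while those of Apoa1 run from -0.73 to 2.17.

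Other apolipoproteins were measured from a list of 23 names, of which 14 had an autosomal probe. Of these, 1 was higher, 2 were lower and 11 did not pass, which is 21.4% called with a median of -0.05, against 35.4% and -0.01 over all genes. Apon read 0.46, 1.11, 0.42 and 1.67, with a mean of 0.91 ± 0.60 (adjusted p = 0.0162), and without replicate 2 it missed the threshold at 0.85 (adjusted p = 0.0575). Its 1 probe was not well above background on every array. Apod, a lipocalin that is carried on high-density lipoprotein, was lower at -0.79 ± 0.40 (adjusted p = 0.00801). Apol6 was lower at -0.31 ± 0.06 (adjusted p = 0.0101), and missed the threshold at -0.05 with the regional correction (adjusted p = 0.604) and at -0.11 with the GC correction (adjusted p = 0.196). Apoe, the ligand by which remnant particles are taken up, read -0.17 ± 0.14 and did not pass (adjusted p = 0.112). With the GC correction 7 of the 14 were called, 6 of them higher, so the count and its direction depend on that step.

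The list of genes that assemble, clear or regulate lipoproteins had 33 of 39 members measured. Of these, 4 were higher, 7 lower and 22 did not pass, which is 33.3% called with a median of -0.01, close to the 35.4% of all genes. Among those that were higher, A1cf, a cofactor of Apob mRNA editing, read 0.94 ± 0.15 (adjusted p = 0.00095). Mttp, which loads lipid onto Apob, read 0.28 ± 0.11 (adjusted p = 0.0196). Among those that were lower, Nr1h2 and Nr1h3, the sterol-sensing receptors LXR beta and LXR alpha, read -0.83 ± 0.25 (adjusted p = 0.00243) and -0.48 ± 0.28 (adjusted p = 0.0167). Rxra, the partner of LXR, read -0.40 ± 0.08 (adjusted p = 0.00535), and Lrp1, Scarb1 and Lmf1 lay between -0.37 and -0.27. Hnf4a, a regulator of many apolipoprotein genes, read 0.05 ± 0.18 and did not pass (adjusted p = 0.682). Of the genes named here, Mttp, Lrp1, Scarb1, Lmf1 and Nr1h3 lost their call under at least 1 alternative, while A1cf, Nr1h2 and Rxra kept theirs under each one run.

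For each of the 5 genes, the 3 autosomal genes with at least 2 probes and over 1 Mb away whose 4 array values were most alike were found by the root mean square difference over 4 arrays. Nearest to Apoa2 were Hrg, at a difference of 0.178, Mgst1 at 0.269 and ENSMUST00000082269 at 0.286. Hrg encodes a plasma glycoprotein made by the liver, and its 4 values were 1.78, 1.75, 1.41 and 1.48. Nearest to Apob were Elmod2 at 0.0423, Igfbp4 at 0.0672 and Phkb at 0.0755. Nearest to Apoh were Ugt3a2 at 0.0654, Tollip at 0.0728 and AK021307 at 0.0776. Nearest to Apoa4 were Atp8b3 at 0.112, Eef1a2 at 0.12 and Dvl3 at 0.13, all lower than the pool. For Apoa1 they were Il4ra at 0.0292, Zfp111 at 0.0306 and Iars at 0.0349. The Apoa1 mean joins unlike probes, and so does the Apoh mean, which limits the matches of both. Between 11719 and 11736 genes were searched for each, and such a small difference over 4 arrays is a description only. Of these 15 genes, 12 moved by over 1.5 times under at least 1 alternative, such as Hrg to 0.99 with normexp and Mgst1 to 0.94 in the deposited table. Phkb moved from 1.14 to 0.32 with the median of its probes.

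**Figure D5:**
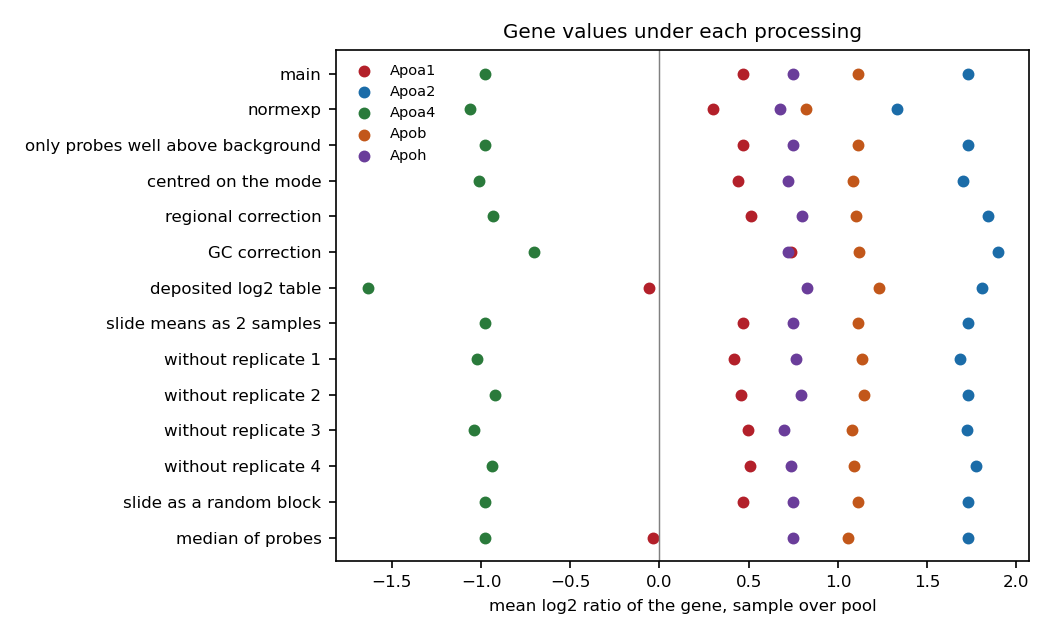
Mean log2 ratio of the 5 genes under each processing alternative, 1 row per alternative. Apoa2, Apob and Apoh stay above 0 and Apoa4 below 0 in every row, while Apoa1 moves from 0.47 to -0.06 in the deposited table and to -0.04 with the median of its probes.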

How the data were processed

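DNA of 4 samples (Cy5) and of the pool (Cy3) was read on Agilent arrays of 62976 spots. The deposited intensity values are processed signals of Agilent Feature Extraction 10.10.1.1, background-subtracted and dye-normalised, per the file headers. The deposited log10 ratio of the same signals served as a check. Positions are on mm9, per the file headers. A deposited table of log2 values, whose within-array normalisation is unknown, was an alternative. Its columns correlated at 0.91 to 0.92 with the same array (no more than 0.67 with others) and had slopes of 0.99 to 1.08. Their medians were -0.04, 0.03, 0.05 and 0 before the table was centred for testing.

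Control and outlier-flagged spots were removed, spots of a probe averaged, and each array centred on its autosomal median. Genes, probes and gene minus flank were tested against 0 with limma 3.58.1 (lmFit, eBayes) in R 4.3.3, after a test on simulated data. Testing against the pool leaves out the spread between normal livers. The smallest two-sided p of an exact sign-flip permutation over 4 arrays is 0.125. Named were the 5 genes with every probe, the genes within 100 kb, the listed apolipoproteins past the threshold, up to 6 pathway genes past it by absolute mean, and the 3 genes most alike. Apoe, Apoa5, Hnf4a, Mttp, Lrp1, Scarb1, Lmf1 and Clu were named from the lists after their values were seen. Some genes that this rule names are not reported here. The members and lists were chosen with earlier results of these data known. Gene names are those of the array design. All 5 members matched a protein-coding gene in the RefSeq table of assembly GRCm38.p6, used for names only.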

Additional observations from a re-analysis of the deposited data

How the results depend on the processing

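Alternatives were the normexp background correction, a filter on dim probes, centring on the mode, a regional and a GC correction, the deposited log2 table, slide means, leaving out each replicate, medians, a call size of 0.5, other flank windows, flanks without apolipoprotein genes and, chosen after seeing the data, slide as a random block. Apoa2, Apoa4, Apob and Apoh kept direction and call under the alternatives able to change them, which leaves out the filter on dim probes, since it removed none of their probes, and, for all but Apob, the median, which equals the mean of 1 or 2 probes. Their values ran from 1.33 to 1.89, -1.64 to -0.70, 0.82 to 1.23 and 0.67 to 0.83. Leaving out 1 replicate gave 1.69 to 1.78, -1.04 to -0.92, 1.08 to 1.15 and 0.70 to 0.79, and 0.42 to 0.51 for Apoa1. Apoa1 changed sign to -0.058 in the deposited table (adjusted p = 0.724) and -0.037 with the median (adjusted p = 0.767); it missed the larger call size at 0.47. It was 0.30 with normexp and 0.73 with the GC correction. Apoa1 minus flank missed the threshold at 0.20 in the deposited table and 0.056 with medians, and was 0.59 to 0.73 without 1 replicate. Apoa1 probe 3 was 0.98 in the centred deposited table, and probe 2 was called lower with normexp at -0.27 (adjusted p = 0.0117). The cause of these differences was not tested.

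Genes called apart from their flanks numbered 6337, but 4044 without replicate 1 and 3913 without replicate 2. Called apolipoproteins of the list numbered 3, or 7 with the GC correction and 2 to 5 without 1 replicate (5 without replicate 4). Called pathway genes numbered 11, or 7 with slide means and 7 to 9 without 1 replicate (7 without replicate 4). Member probes called between slides numbered 0, or 1 with normexp. Neighbouring genes, called genes of the lists and the genes most alike kept their direction wherever they were called, though Phkb lost its call at 0.25 after the filter on dim probes. No paired analysis was possible because there is 1 group, and its replicate numbers pair it with no other group. All member spots were well above background, so their ratios are limited by the 4 arrays, by 1 probe for Apoa2 and Apoa4, by probe 2 of Apoh, and by the absence of a dye swap.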

Other observations

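Clu, also called apolipoprotein J, a secreted chaperone that is found on high-density lipoprotein, differed between the slides more than any other apolipoprotein listed, and was singled out after its values were seen. The gene read -1.63 and -1.82 on slide 1 and 0.48 and 0.37 on slide 2, so that the slides did not overlap. Its mean of -0.65 ± 1.24 (SD, n = 4) did not pass the test against the pool (adjusted p = 0.262, limma). Slide 2 lay above slide 1 by 2.15 (unadjusted p = 1.14e-05, adjusted p = 0.223 over all genes, limma), in a comparison in which 0 of 20445 genes were called. Both of its probes on chromosome 14 shared the pattern: the first averaged -0.58 on slide 1 and 0.85 on slide 2, and the second -2.87 and 0.01. Apod differed by 0.64 in the same direction (adjusted p = 0.439). Slide and samples cannot be told apart.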
